A study of Mus musculus with 18 samples.

Results

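The Ms4a genes encode small membrane proteins that span the membrane several times and sit beside immune receptors. The 8 members Ms4a4a, Ms4a4c, Ms4a6b, Ms4a6c, Ms4a6d, Ms4a7, Ms4a8a and Ms4a14 were taken by symbol, and 8 of 8 were found among the 16314 genes of the count table. They were followed in bone marrow-derived macrophages (BMDMs), which are macrophages grown from marrow cells of the mouse femur, of Prep-/- mice and of their heterozygous Prep+/- littermates on a C57BL6/J background. Prep encodes prolyl endopeptidase, an enzyme that cleaves peptides after proline. All cells were grown for 7 days in 50 ng/ml M-CSF and then left unstimulated (M0), given 50 ng/ml LPS for 24 h (M1), or given a mix of IL-4 and IL-13, each at 20 ng/ml, over 24 h (M2). Each of the 6 groups held 3 libraries, described by the study as biological replicates, and the labels do not say whether a number marks one animal across states. The controls thus carry 1 disrupted copy of Prep themselves, and the age of the donors is not given in the sources used here.

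Members of the family are best known from blood cells. Ms4a1 is CD20, the surface antigen of B cells, and Ms4a2 is the beta chain of the high-affinity IgE receptor of mast cells. In macrophages Ms4a4a joins the beta-glucan receptor Dectin-1 (Clec7a) in lipid rafts, Ms4a7 is a marker of mature tissue macrophages, and the Ms4a6 genes are carried by monocytes and macrophages, where Ms4a6d acts on inflammatory signalling. Ms4a8a has been linked to alternatively activated macrophages. LPS acts through Toll-like receptor signalling and a secondary interferon response, whereas IL-4 and IL-13 act through STAT6.

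Total counts were 19068237 to 22598279 per library, of which 12021 genes passed the filter on low counts. The target gene followed the labels: Prep had normalized counts (counts scaled to equal effective library size) of 551 to 900 in the Prep+/- libraries and of 31.3 to 68.1 in the Prep-/- libraries. Macrophage markers were present in every library, with 7 of 7 detected and a summed level of 9958 to 47592 CPM (counts scaled to library size). The lists for B cells, mast cells and basophils, granulocyte precursors, T cells, dendritic cells and erythroid cells each summed to at most 11.5 CPM, with Pax5, Cd3e, Fcer1a and Alas2 among the markers not in the table. Stromal markers summed to 0.0839 to 20.5 CPM and classical monocyte markers to 13.1 to 136 CPM. All 8 members passed the filter over the 6 groups, although Ms4a8a did so with 0 to 17 counts per library. Its highest counts were 14, 11 and 17 in the Prep-/- M0, M1 and M2 groups and 1, 4 and 10 in the Prep+/- groups. It thus passed through Prep-/- libraries, so its difference between genotypes is not independent of the filter.

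The 8 genes lie on chr19 in a cluster of 21 annotated Ms4a genes at chr19:10939657-11618215 (GRCm39), and all are protein-coding. Ms4a8a (chr19:11044835-11058466), Ms4a14 (chr19:11278613-11291818), Ms4a7 (chr19:11298403-11313510) and Ms4a6d (chr19:11563968-11582213) are on the minus strand. Ms4a4a (chr19:11352823-11370154), Ms4a4c (chr19:11382131-11404610), Ms4a6c (chr19:11446718-11462204) and Ms4a6b (chr19:11493876-11508620) are on the plus strand. Several are near copies of each other, and reads of these stretches may have been split between them in counting. The transcripts of Ms4a6b and Ms4a6c were 86.2% identical over 1248 bases, and those of Ms4a6d matched Ms4a6b at 88.0% over 609 bases and Ms4a6c at 90.0% over 431 bases. Ms4a4c matched Ms4a4b at 85.2% over 596 bases. Ms4a4c, Ms4a6c and Ms4a6b also share exon bases with a gene on the opposite strand (Gm5692, BE692007 and Gm19261), and the libraries were made with a stranded kit, but the strand setting of the counting is not given in the sources used here.

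Sequences before the start sites were taken from RefSeq (GRCm38.p6), which gave 8 start sites for 7 members, and each was placed once in GRCm39 by exact match. The windows, each 300 bases long from 250 before to 50 after the start, were searched on both strands for 4 motifs. The core of the interferon-stimulated response element (ISRE), GAAANNGAA, was present in 4 of 8 windows, beside 8.56% of all 32851 promoter windows. The STAT6-type motif, TTC and GAA with 4 bases between them, was present in 2 of 8 windows beside 6.95% of all windows. The GAS motif, TTC and GAA with 3 bases between them, and the motif GAGGAAGT of the macrophage factor PU.1 were in 0 of 8 windows, beside 8.3% and 3.2% of all windows. The windows of Ms4a6b and Ms4a6c are not separate observations, since they matched each other at 82.2% over 180 bases. The other windows with an ISRE core both belonged to Ms4a7. The window of Ms4a4c held no match to any of the 4 motifs, and Ms4a6d was the member without a window. The stretches of 3 of the 4 starts with an ISRE core (all but the second start of Ms4a7), and that of Ms4a4a, which holds none and had the largest fold difference between genotypes, are printed 5′ to 3′ from 250 bases before the RefSeq start up to the first annotated exon base, with matches in capitals. No 2 matches overlapped, and a match is a run of letters and not a shown binding site.
Ms4a6c (chr19:11446482-11446717, plus strand, ISRE core GAAAGTGAA starting 133 bases before the start): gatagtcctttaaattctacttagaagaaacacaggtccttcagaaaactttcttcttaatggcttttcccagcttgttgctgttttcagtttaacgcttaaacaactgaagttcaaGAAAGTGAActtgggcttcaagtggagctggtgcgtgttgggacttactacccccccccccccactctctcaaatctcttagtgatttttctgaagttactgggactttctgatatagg
Ms4a6b (chr19:11495673-11495816, plus strand, within the annotated gene, ISRE core GAAAGTGAA starting 206 bases before the start): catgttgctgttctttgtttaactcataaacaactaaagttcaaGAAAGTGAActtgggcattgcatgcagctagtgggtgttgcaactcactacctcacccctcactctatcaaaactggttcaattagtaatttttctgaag
Ms4a7 first start (chr19:11313511-11313760, minus strand, upstream of the gene, ISRE core on the reverse strand at 71 and STAT6-type at 13 bases before the start): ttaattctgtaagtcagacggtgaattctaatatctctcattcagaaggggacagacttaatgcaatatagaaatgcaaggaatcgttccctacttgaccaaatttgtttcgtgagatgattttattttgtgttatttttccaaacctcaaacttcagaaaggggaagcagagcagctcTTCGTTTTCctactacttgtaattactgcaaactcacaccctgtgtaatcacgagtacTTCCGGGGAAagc
Ms4a4a (chr19:11352602-11352822, plus strand, upstream of the gene, no match): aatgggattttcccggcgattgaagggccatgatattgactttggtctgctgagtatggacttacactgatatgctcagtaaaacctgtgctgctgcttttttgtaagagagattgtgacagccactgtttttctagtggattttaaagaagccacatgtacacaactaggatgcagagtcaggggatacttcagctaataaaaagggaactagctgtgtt
The second start of Ms4a7 held an ISRE core 148 bases before it, and the second STAT6-type match lay 9 bases after the start of Ms4a6b.

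In unstimulated BMDMs all 8 members were higher in Prep-/- than in Prep+/- cells, between 2.66-fold (Ms4a6d) and 33.7-fold (Ms4a4a). With a call set at an adjusted p under 0.05 together with a fold over 1.5, 8 of 8 members were called higher beside 15.4% of all tested genes called higher and 17.2% called lower. Ms4a8a did not pass the filter with the M0 libraries alone, where 7 members were tested and 7 called. The groups did not overlap for 8 of 8 members, beside 25.6% of all tested genes that were higher without overlap. The median log2 difference was 2.43 over the members and 0.02 over all tested genes. In bulk RNA, a change in how many cells carry a transcript and a change in the amount per cell cannot be told apart.

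Ms4a4a, the Dectin-1 partner, had normalized counts of 332, 120 and 151 in Prep+/- and of 8426, 4946 and 6856 in Prep-/- M0 BMDMs. Every knockout library was far above every control library. The log2 difference was 5.07 ± 0.42 (SE, n = 3 per group, adjusted p = 4.65e-07). Ms4a4c, a neighbour of the T cell gene Ms4a4b, had normalized counts of 62.7, 24.2 and 45.8 in Prep+/- and of 823, 539 and 577 in Prep-/- cells. It was low in all control libraries and rose by 3.88 ± 0.44 on the log2 scale (adjusted p = 4.87e-06).

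The Ms4a6 genes, carried by monocytes and macrophages, started from higher levels. Ms4a6b had normalized counts of 1110, 818 and 1100 in Prep+/- and of 6649, 7205 and 4487 in Prep-/- M0 cells. Ms4a6c had 2326, 1932 and 1920 against 10840, 10970 and 7863. Both rose in every knockout library, by 2.6 ± 0.28 (adjusted p = 3.37e-06) and 2.26 ± 0.27 (adjusted p = 8.84e-06) on the log2 scale. Ms4a6d had normalized counts of 2752, 2632 and 2796 in Prep+/- and of 7446, 8290 and 6018 in Prep-/- cells. Its control libraries were close to each other, and the log2 difference of 1.41 ± 0.13 (adjusted p = 1.23e-06) was the smallest of the 8 although its groups did not overlap.

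Ms4a7, the marker of mature macrophages, had normalized counts of 5188, 4608 and 3751 in Prep+/- and of 25229, 17127 and 19962 in Prep-/- M0 cells, a log2 difference of 2.2 ± 0.22 (adjusted p = 1.88e-06). Ms4a14 had 328, 241 and 310 against 1341, 1059 and 529, a log2 difference of 1.74 ± 0.29 (adjusted p = 1.69e-04). The third knockout library was the lowest for Ms4a14, but it was still above all controls. Ms4a8a had 0, 1 and 1 counts in Prep+/- and 14, 6 and 1 counts in Prep-/- libraries, which is a ratio of summed counts of 11.4 (95% exact interval 2.78 to 100.1, counting error only). Its lowest knockout and highest control libraries both had 1 count and were apart only in library size. Its adjusted p was 0.0284 with a log2 difference of 3.27 ± 1.16, and the call was lost without the first knockout library (adjusted p = 0.182), without any single control library (adjusted p = 0.0621 to 0.0776) or in a test against the 1.5-fold limit itself (adjusted p = 0.0794).

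Some markers of the cell state also differed between genotypes in M0. Of the 7 macrophage markers, 5 were called higher in Prep-/- cells (Adgre1, Csf1r, Fcgr1, Lyz2 and Mertk), beside 15.4% of all tested genes, with summed levels of 18733 to 22167 CPM in Prep+/- and of 29989 to 47592 CPM in Prep-/- libraries. Of the 4 genes listed for classical monocytes, which are not all specific to them, 3 were called higher (Ccr2, Cd177 and Ly6c2), with sums of 41.3 to 43.9 CPM and of 89.0 to 136 CPM. Of the 4 stromal markers, all tested, 1 was called higher (Pdgfrb) and 0 lower. The stromal sums overlapped, at 11.9 to 14.9 CPM in Prep+/- and 0.692 to 17.0 CPM in Prep-/- libraries. Cd79b, the 1 tested marker of B cells, was called higher as well. The B cell list summed to 3.01 to 4.79 CPM and 8.66 to 11.5 CPM, with Ms4a1 at 1 count in 1 Prep+/- library and at 0 in all Prep-/- libraries. Ms4a3, a gene of granulocyte and monocyte progenitors, had 1 count in each Prep+/- library and 4 to 16 in the Prep-/- libraries, and was not tested. Of the 5 granulocyte precursor markers, which include Ms4a3, 1 was tested and 0 were called. The sums of that list overlapped, at 0.802 to 2.01 CPM in Prep+/- and 1.51 to 3.04 CPM in Prep-/- libraries. In M1 the summed macrophage markers were lower in Prep-/- (30443 to 36405 CPM) than in Prep+/- libraries (44529 to 45873 CPM). In M2 they were higher (13817 to 19505 CPM against 9958 to 12160 CPM). Of the macrophage markers, Mertk was called higher in M1, and Csf1r and Lyz2 in M2. Of the classical monocyte genes, Ccr2 was called higher and Ly6c2 lower in M1. The part of these markers in the Ms4a differences was not tested.

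**Figure D1:**
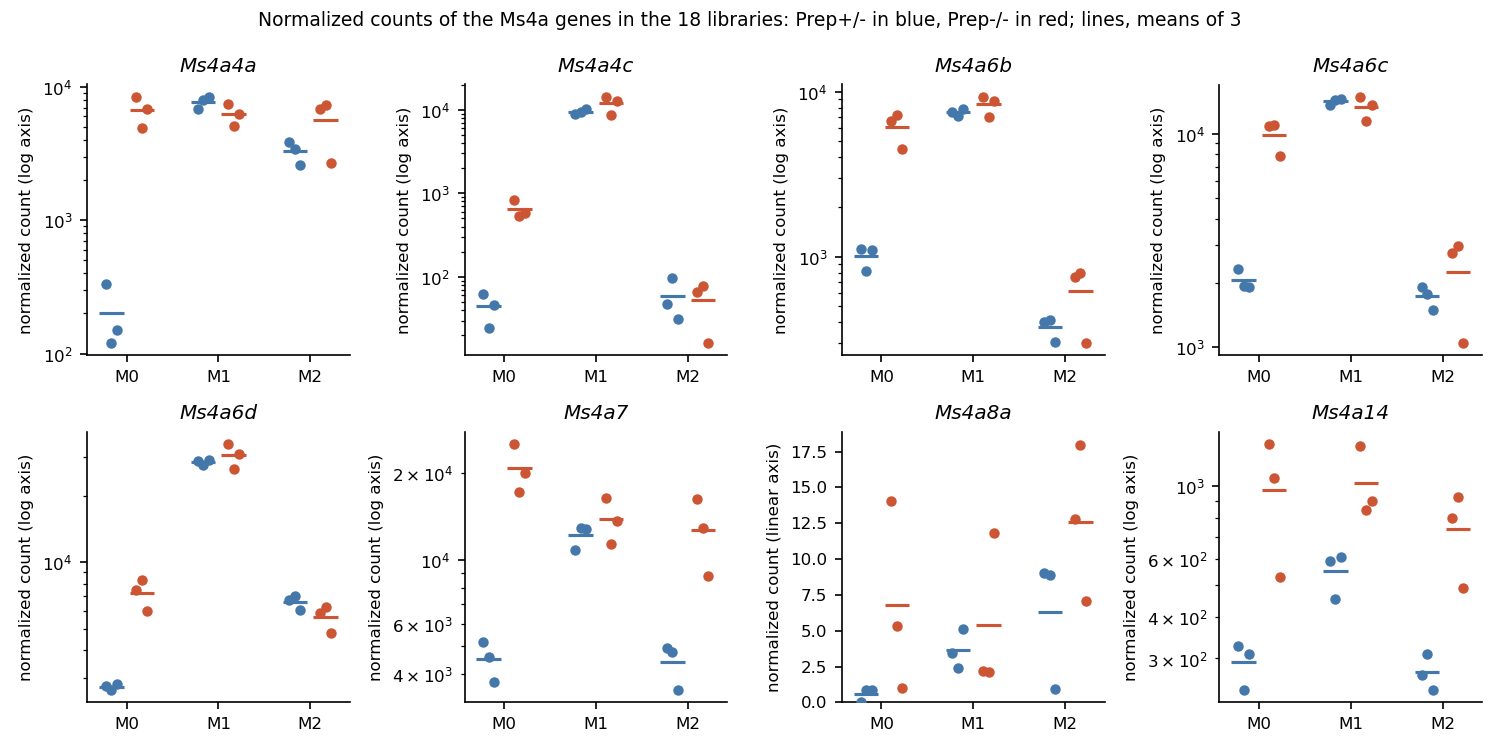
Normalized counts of the 8 Ms4a genes in each library (points) with group means (lines), for Prep+/- (blue) and Prep-/- (red) BMDMs in M0, M1 and M2. The axis is logarithmic except for Ms4a8a, whose axis is linear because 1 library is at 0. In M0 the red points lie above the blue points in all 8 panels, and in M1 they overlap in all but Ms4a14.

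After LPS the libraries of the genotypes overlapped for 7 of 8 members. Of the 8 members, 1 was called higher in Prep-/- M1 BMDMs and 0 lower, beside 12.3% and 10.2% of all tested genes, so the members' share was near the background. The same single member was higher without overlap, beside 29.8% of all tested genes. The median log2 difference was 0.17 over the members and 0.04 over all tested genes.

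That member was Ms4a14, with normalized counts of 595, 456 and 609 in Prep+/- and of 1327, 844 and 902 in Prep-/- M1 cells. All knockout libraries were above all control libraries, and the log2 difference was 0.89 ± 0.29 (adjusted p = 0.0239). The call was lost without the second Prep+/- library (0.76, adjusted p = 0.101) or without the first Prep-/- library (0.65, adjusted p = 0.135), and when the test was made against the 1.5-fold limit itself (adjusted p = 0.347).

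The other members had overlapping groups in M1. Ms4a4a had normalized counts of 6840, 7958 and 8335 in Prep+/- and of 7403, 5115 and 6281 in Prep-/- cells (log2 difference -0.30 ± 0.35). Ms4a4c had 8829, 9282 and 10094 against 14279, 8688 and 12781 (0.34 ± 0.35). Neither passed the test, and the knockout libraries were spread more widely than the controls. Ms4a6b had 7576, 7115 and 7870 against 9308, 7043 and 8740 (0.15 ± 0.26), and Ms4a6c had 13684, 14359 and 14480 against 14885, 11476 and 13643 (-0.09 ± 0.26). Ms4a6d had 28777, 27654 and 29000 against 34334, 26504 and 31036 (0.10 ± 0.13). The second Prep-/- library was the lowest of its group for 8 of 8 members, beside 33.7% of all tested genes. Ms4a7 had 10792, 12871 and 12778 against 16393, 11362 and 13661 (0.18 ± 0.21), and Ms4a8a had 3, 2 and 4 counts against 2, 2 and 11.

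In M2 BMDMs, 2 of 8 members were called higher in Prep-/- cells and 0 lower, beside 6.37% and 9.82% of all tested genes. The same 2 members, Ms4a7 and Ms4a14, were higher without overlap, beside 21.2% of all tested genes. The median log2 difference was 0.75 over the members and 0.03 over all tested genes.

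Ms4a7 had normalized counts of 4921, 4781 and 3523 in Prep+/- and of 16283, 12921 and 8779 in Prep-/- M2 cells, a log2 difference of 1.52 ± 0.22 (adjusted p = 1.19e-04). Ms4a14 had 267, 310 and 241 against 801, 928 and 491, a log2 difference of 1.44 ± 0.29 (adjusted p = 0.00189). The lowest knockout library of each was above all controls.

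For 3 further members the third knockout library lay among or below the controls and the other two lay above them. Ms4a4a had normalized counts of 3840, 3406 and 2584 in Prep+/- and of 6877, 7359 and 2670 in Prep-/- cells (log2 difference 0.78 ± 0.35, adjusted p = 0.114). Ms4a6b had 404, 415 and 302 against 752, 800 and 300 (0.72 ± 0.28, adjusted p = 0.0659). Ms4a6c had 1926, 1777 and 1498 against 2760, 2975 and 1050 (0.38 ± 0.26). None of the 3 passed the test. Ms4a4c had 46.9, 96.8 and 31.1 against 66.0, 78.3 and 16.2 (-0.14 ± 0.47), far below its M1 level in both genotypes. Ms4a6d had 6718, 7004 and 6061 against 5909, 6239 and 4787 (-0.22 ± 0.13), and Ms4a8a had 10, 10 and 1 counts against 12, 17 and 7.

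The library numbered 3 was the lowest of its M2 group for 8 of 8 members in both genotypes, beside 35% (Prep+/-) and 41.5% (Prep-/-) of all tested genes. Without the third Prep-/- library 5 of 8 members were called higher, while the calls over all genes, in either direction, went from 1947 of 12021 to 2627 of 12146. The members gained were Ms4a4a at 1.13 (adjusted p = 0.00857), Ms4a6b at 1.07 (adjusted p = 5.52e-04) and Ms4a6c at 0.74 (adjusted p = 0.00152) on the log2 scale. Leaving out the third library of both genotypes, which was added after seeing the data, also gave 5 of 8, with Ms4a4a at 0.99 (adjusted p = 0.0414), beside 2261 of 12130 genes called in either direction.

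**Figure D2:**
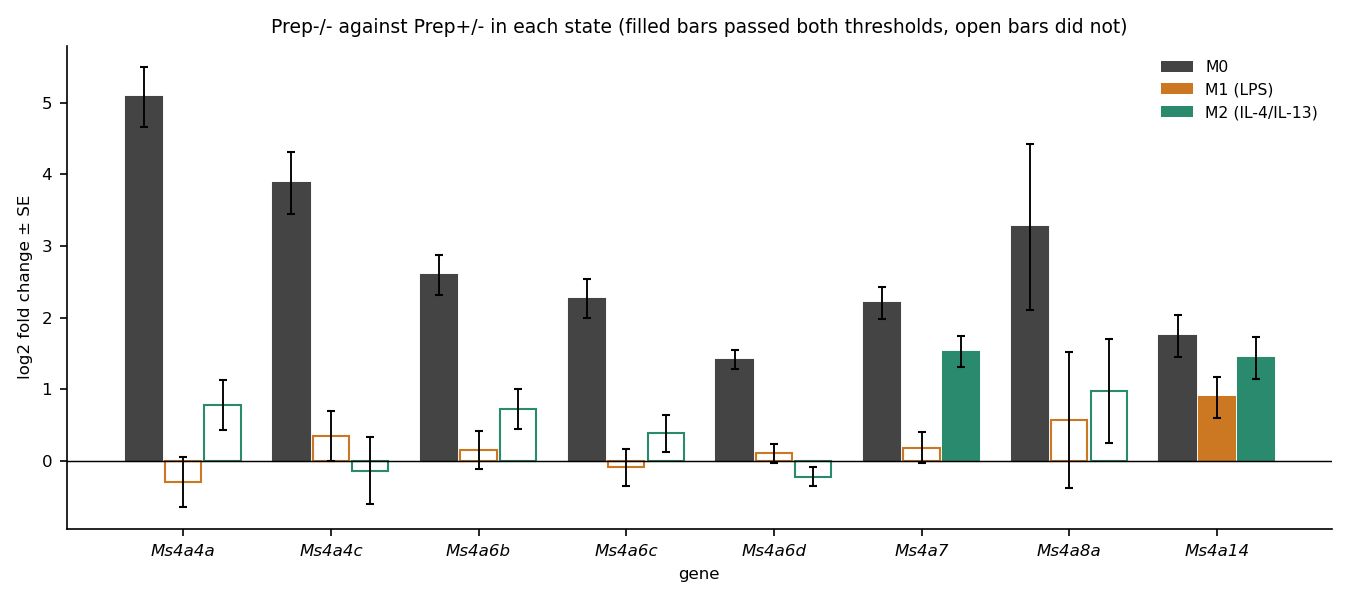
Log2 fold change of Prep-/- against Prep+/- for each member in M0 (grey), M1 (orange) and M2 (green), with the SE of the fit as error bars. Filled bars passed both thresholds: 8 of 8 in M0, 1 of 8 in M1 (Ms4a14) and 2 of 8 in M2 (Ms4a7 and Ms4a14).

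Most members rose with LPS in Prep+/- BMDMs. Of the 8 members, 7 were called higher in M1 than in M0 and 0 lower, beside 16.7% and 20.9% of all tested genes, and 8 of 8 were higher without overlap, beside 31.1%. The median log2 difference was 2.84 over the members and -0.03 over all tested genes. Ms4a4c rose most, by 7.74 ± 0.49 on the log2 scale (214-fold, adjusted p = 2.77e-09), and Ms4a4a followed with 5.27 ± 0.42 (38.5-fold, adjusted p = 3.49e-08). Ms4a6d rose 10.4-fold, Ms4a6b 7.45-fold and Ms4a6c 6.88-fold, with adjusted p from 3.23e-11 to 3.56e-07. Ms4a7 rose 2.69-fold (adjusted p = 3.47e-05) and Ms4a14 rose 1.89-fold (adjusted p = 0.0145), whereas Ms4a8a, at 9 against 2 counts in all, did not pass (adjusted p = 0.143). The Ms4a14 call was lost without the second M0 library (adjusted p = 0.0589), without the third M1 library (adjusted p = 0.0538) and in the test against the fold limit (adjusted p = 0.157).

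In Prep-/- BMDMs the same step from M0 to M1 gave 2 members called higher and 1 lower, beside 20.9% and 21% of all tested genes. These comparisons share no libraries with those in Prep+/- cells, but they share the Prep-/- M0 libraries with the genotype comparison above. Ms4a4c rose 18.4-fold (log2 4.20 ± 0.40, adjusted p = 2.30e-07) and Ms4a6d rose 4.22-fold (2.08 ± 0.14, adjusted p = 4.10e-09). Ms4a7 fell by 0.59 ± 0.21 on the log2 scale (adjusted p = 0.0260). This call sat at the 1.5-fold limit and was lost without the first M0 library (-0.43, adjusted p = 0.125), the second M1 library (-0.51, adjusted p = 0.0885) or the third M1 library (adjusted p = 0.0520), with either other filter on low counts, where the fold fell under 1.5, and in the test against the fold limit (adjusted p = 0.545). With the replicate number as a block the value was -0.63 (adjusted p = 0.00652), and the same number of members, 3, was called. Ms4a4a (-0.11 ± 0.35), Ms4a6b (0.45 ± 0.26), Ms4a6c (0.43 ± 0.26) and Ms4a14 (0.07 ± 0.28) did not pass, and of these Ms4a6c alone had M0 and M1 libraries that did not overlap.

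IL-4 and IL-13 moved the members apart. In Prep+/- BMDMs 2 of 8 were called higher in M2 than in M0 and 1 lower, beside 6.09% and 6.77% of all tested genes. Ms4a4a rose 16.4-fold (log2 4.03 ± 0.40, adjusted p = 1.92e-06) and Ms4a6d rose 2.42-fold (1.27 ± 0.13, adjusted p = 3.35e-06), while Ms4a6b fell by 1.43 ± 0.28 on the log2 scale (adjusted p = 0.00139). Ms4a7 (-0.03 ± 0.21), Ms4a14 (-0.10 ± 0.29), Ms4a6c (-0.25 ± 0.26) and Ms4a4c (0.42 ± 0.47) did not pass. Ms4a8a, linked to alternative activation, had 21 counts in M2 and 2 in M0 over 3 libraries each, a ratio of 10.9 (95% exact interval 2.66 to 95.7), and did not pass (adjusted p = 0.0684), although it did without the third M2 library (adjusted p = 0.0340).

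In Prep-/- BMDMs 0 of 8 were called higher in M2 than in M0 and 4 lower, beside 14.7% and 15.5% of all tested genes. No member was higher at an unadjusted p under 0.05 either, by edgeR or by DESeq2 (0 by each), and the same held for every other count of 0 given here for members called in one direction. On the log2 scale, Ms4a4c fell by 3.6 ± 0.43 (adjusted p = 5.59e-06) and Ms4a6b fell by 3.31 ± 0.29 (adjusted p = 1.64e-07). Ms4a6c fell by 2.13 ± 0.27 (adjusted p = 1.01e-05) and Ms4a7 fell by 0.71 ± 0.21 (adjusted p = 0.0121). Of the other 4, Ms4a14 stood at -0.40 ± 0.28 and Ms4a8a at 0.89 ± 0.73. The Ms4a7 call was lost without the first M0 library (-0.55, adjusted p = 0.0634) or the third M2 library (-0.52, adjusted p = 0.0552), with only the libraries compared (adjusted p = 0.0803) and in the test against the fold limit (adjusted p = 0.397). Ms4a14 was called lower without the third M0 library (-0.70, adjusted p = 0.0263). Ms4a4a, which rose in Prep+/- cells, stood at -0.26 ± 0.35 in Prep-/- cells (adjusted p = 0.574). Ms4a6d, which also rose in Prep+/- cells, stood at -0.36 ± 0.13 (adjusted p = 0.0342) and missed the call by the fold limit alone.

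The difference between genotypes in these responses was tested as an interaction. For LPS, 6 of 8 members had a response called lower in Prep-/- than in Prep+/- cells and 0 higher, beside 9.15% and 12% of all tested genes. The members were Ms4a4a, Ms4a4c, Ms4a6b, Ms4a6c, Ms4a6d and Ms4a7, and the log2 differences of response ran from -5.37 (Ms4a4a) to -1.31 (Ms4a6d). For IL-4 and IL-13, 5 of 8 were called lower and 0 higher, beside 4.13% and 4.53% of all tested genes, from -4.29 (Ms4a4a) to -1.64 (Ms4a6d). Without the third Prep-/- M0 library Ms4a14 was called lower for LPS as well (-1.14, adjusted p = 0.0200). Ms4a7 was not among the 5 for IL-4 and IL-13, and a test against the 1.5-fold limit itself left 3 of them. Both interactions use the same M0 libraries, so the difference between genotypes in M0 enters each of them.

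**Figure D3:**
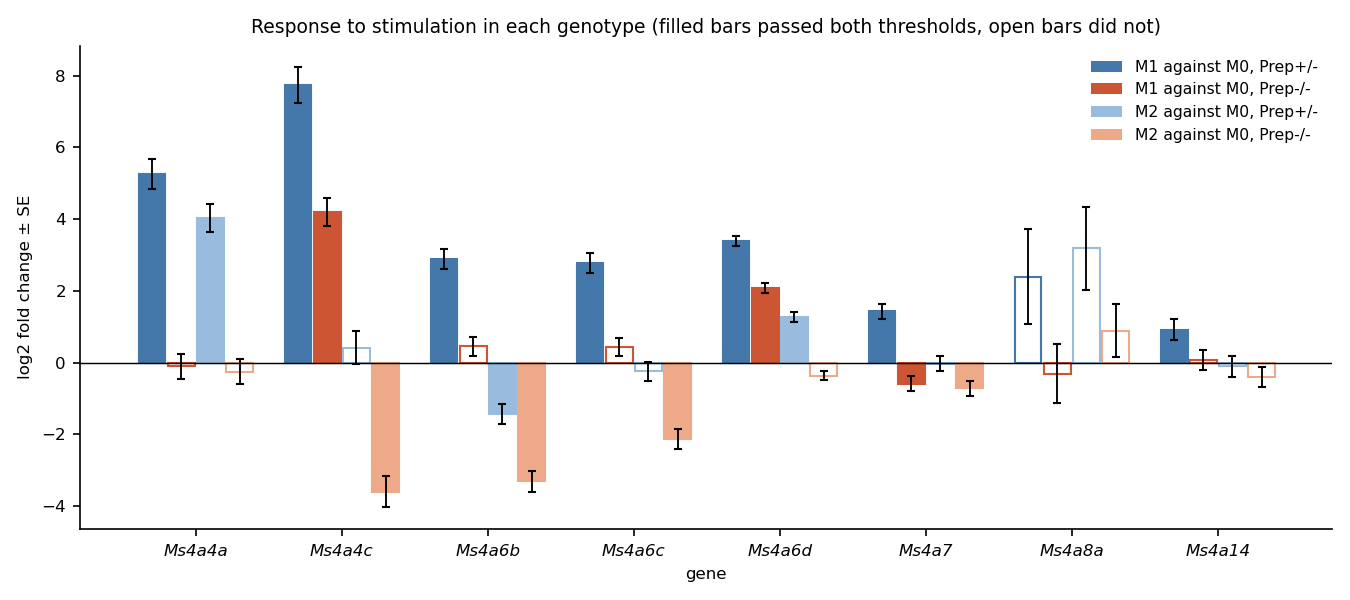
Log2 fold change from M0 to M1 (dark bars) and from M0 to M2 (pale bars) in Prep+/- (blue) and Prep-/- (red) BMDMs, with the SE of the fit as error bars and filled bars where both thresholds were passed. Ms4a4a rose by 5.27 and 4.03 in Prep+/- cells and stood at -0.11 and -0.26 in Prep-/- cells, and both differences of response passed the interaction test.

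Levels of different genes were compared as CPM per kilobase of the canonical transcript. The summed level of the 8 members was 338 ± 37.0 (SD, n = 3) in Prep+/- M0, 1754 ± 262 in Prep-/- M0, 2579 ± 112 in Prep+/- M1, 2696 ± 430 in Prep-/- M1, 617 ± 84.6 in Prep+/- M2 and 1035 ± 326 in Prep-/- M2. Prep-/- M0 cells thus lay between the Prep+/- M0 and M1 levels. The make-up of the sum differed between groups as well. Ms4a7 led in M0 in both genotypes, with 47.2% ± 3.70 of the sum in Prep+/- and 41.8% ± 3.47 in Prep-/- cells. Ms4a4a made up 3.26% ± 1.49 in Prep+/- and 21.6% ± 3.64 in Prep-/- M0 cells, where it ranked second, with values that overlapped those of Ms4a6c.

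Ms4a6d led in M1, with 36.8% ± 1.79 in Prep+/- and 38.0% ± 1.24 in Prep-/- cells. Ms4a4a and Ms4a7 overlapped as the next in Prep+/- M1 cells (16.9% ± 1.03 and 16.7% ± 1.08). Ms4a4c made up 9.94% ± 0.266 in Prep+/- and 11.9% ± 1.2 in Prep-/- M1 cells, and under 1% in all other groups. In M2 the leading gene was Ms4a6d in Prep+/- (35.8% ± 2.87) and Ms4a7 in Prep-/- cells (43.8% ± 4.59). Ms4a4a stood at 29.8% ± 2.04 and 29.6% ± 6.21 in M2, and its values overlapped those of the leading gene in both genotypes. Ms4a14 and Ms4a8a ranked low in every group, at 1.01% or less.

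**Figure D4:**
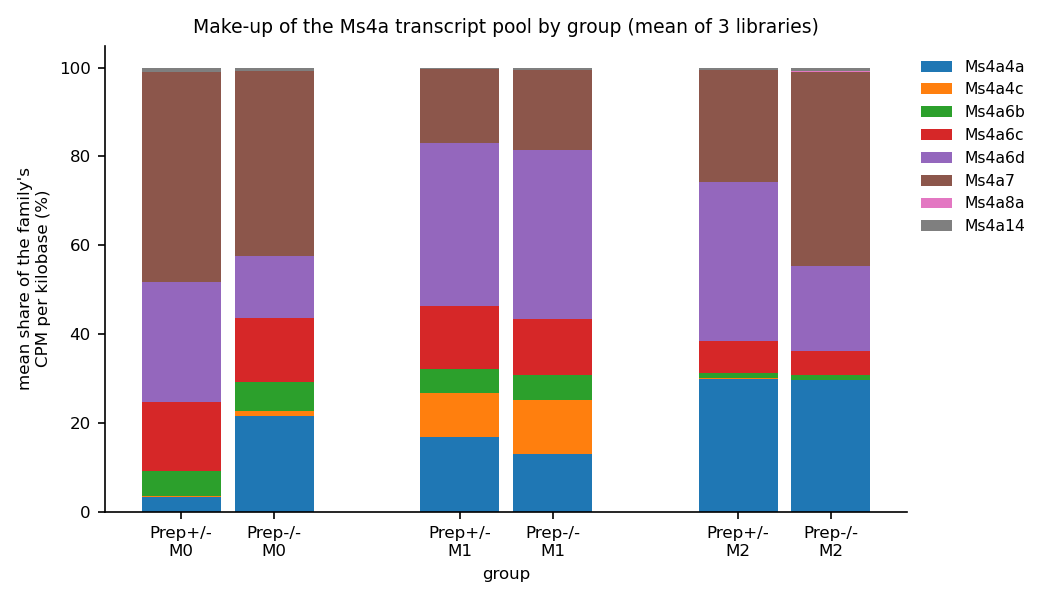
Mean share of each member in the family's summed CPM per kilobase in the 6 groups (3 libraries each). Ms4a4a (blue) goes from 3.26% in Prep+/- M0 to 21.6% in Prep-/- M0, Ms4a4c (orange) is visible mainly in M1, and Ms4a6d (purple) is the largest part in M1 with 36.8% and 38.0%.

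Of the other Ms4a genes and relatives, 15 were listed, 9 were in the count table and 3 were tested. These were Ms4a4b, a T cell gene, and Tmem176a and Tmem176b, related channel-like proteins of antigen-presenting cells encoded outside the cluster. In M0, 3 of 3 were called higher in Prep-/- cells, beside 15.4% of all tested genes. Ms4a4b had normalized counts of 17.4, 14.2 and 20.4 in Prep+/- and of 82.3, 89.5 and 83.0 in Prep-/- M0 cells (log2 2.29 ± 0.41, adjusted p = 3.01e-04), and it shares sequence with Ms4a4c. Tmem176b had 669, 423 and 298 against 10875, 3910 and 3761 (3.74 ± 0.43, adjusted p = 6.31e-06), and Tmem176a had 187, 102 and 87.4 against 3951, 1322 and 1325 (4.14 ± 0.42, adjusted p = 1.97e-06). The first knockout library was the highest for both Tmem176 genes. In M1 the log2 differences were -0.51 ± 0.40 (Ms4a4b), 0.96 ± 0.38 (Tmem176a, adjusted p = 0.0557) and 0.96 ± 0.40 (Tmem176b, adjusted p = 0.0682), which did not pass, and in M2, Tmem176a (2.73) and Tmem176b (2.51) did. Ms4a1, Ms4a2 and Ms4a12 had at most 1 count in any library, and Ms4a4d had at most 2. Gm8369, a gene within the cluster but outside this list, was also tested and was not called between genotypes. Its log2 differences were 0.82 ± 0.62 in M0 (adjusted p = 0.286), -0.44 ± 0.50 in M1 and -1.58 ± 0.83 in M2. It had 1 to 23 counts per library and matched Ms4a4c at 85.6% over 181 bases.

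A list of 12 genes held receptors that Ms4a proteins are described beside, their signalling partners, and the proteases Adam10 and Adam17. Of these 12 genes, 7 were called higher and 1 lower in Prep-/- M0 cells, beside 15.4% and 17.2% of all tested genes. The median log2 difference was 0.86, beside 0.02 over all tested genes. Fcgr2b, the inhibitory Fc receptor, rose by 2.74 (adjusted p = 4.39e-07), Clec7a, which encodes Dectin-1, by 2.14 (adjusted p = 4.67e-06) and Fcgr4, an activating Fc receptor, by 2.05 (adjusted p = 1.54e-06), while the protease Adam10 fell by 0.72 (adjusted p = 7.15e-05). Clec7a had normalized counts of 907, 793 and 886 in Prep+/- and of 4828, 3775 and 2776 in Prep-/- M0 cells. In M1 it was lower in Prep-/- cells (354, 509 and 616 against 295, 192 and 403, log2 -0.73, adjusted p = 0.0272), and in M2 it was higher (8690, 8969 and 9742 against 19072, 16206 and 19820, log2 1.01, adjusted p = 0.00430). With LPS, Clec7a fell in Prep+/- cells (-0.81, adjusted p = 0.00890), where Ms4a4a rose. Trem2, a lipid receptor of macrophages whose human level has been tied to the MS4A locus, did not pass between genotypes (M0, 0.25 ± 0.17, M1, 0.09 ± 0.17, and M2, 0.33 ± 0.17). In M1, 2 of the 12 were called higher and 1 lower, near the 12.3% and 10.2% of all tested genes, and in M2, 4 were called higher, beside 6.37%.

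The genes beside the cluster were taken from the annotation. Of 39 protein-coding genes within 500 kb of either end, 24 were in the table and 17 were tested. In M0, 1 was called higher in Prep-/- cells (Slc15a3, 0.59) and 3 lower (Tmem109, -1.0, Prpf19, -0.69, and Stx3, -0.69), beside 15.4% and 17.2% of all tested genes, and the median log2 difference was -0.06. Slc15a3 is a lysosomal peptide transporter and also rose with LPS in Prep+/- cells (4.09 ± 0.23). In M1, 2 neighbours were called higher and 1 lower, beside 12.3% and 10.2% of all tested genes, and in M2, 1 higher and 1 lower, beside 6.37% and 9.82%. Tmem109 was lower in all 3 states (-1.0, -0.67 and -0.80).

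**Figure D5:**
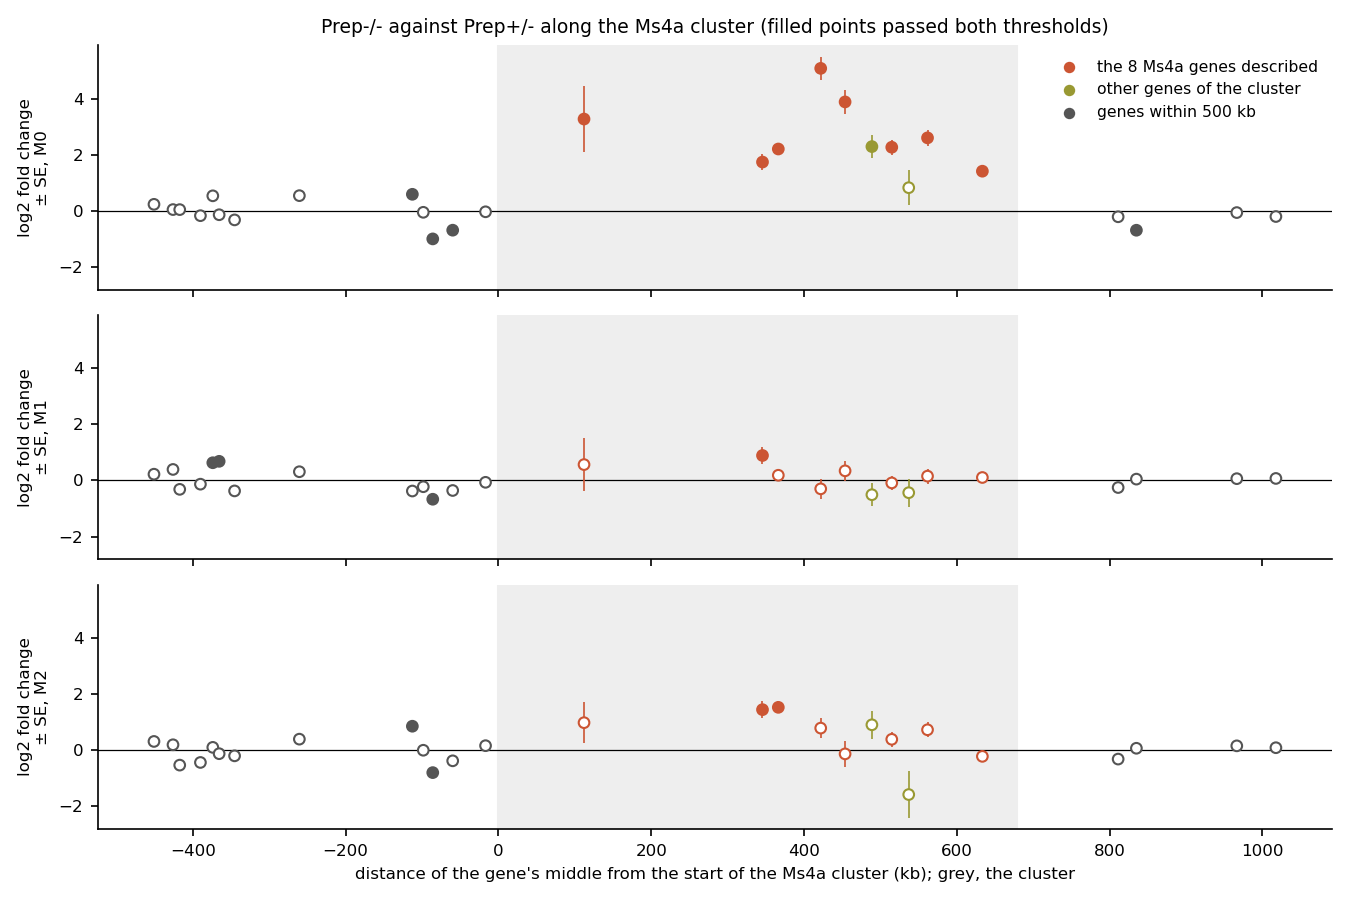
Log2 fold change of Prep-/- against Prep+/- (with SE) of each tested gene against its distance from the start of the Ms4a cluster (shaded), in M0, M1 and M2. In M0 the 8 members (red, filled) and Ms4a4b (olive, filled) lie above 0 inside the cluster, whereas the 17 neighbours (grey) lie between -1.0 and 0.59. Gm8369 (olive, open), also inside the cluster, stood at 0.82 in M0 and was not called.

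Across the 18 libraries, members were compared with all genes of at least 5 CPM on average by the correlation of log2 CPM, which is a description, since libraries of one group share their treatment. The closest gene was Fas (r = 0.99) for Ms4a4c, N4bp1 (0.98) and then the interferon-induced Usp18 (0.98) for Ms4a6d, Ms4a6c (0.98) for Ms4a6b, Ncf1 (0.98), a subunit of the phagocyte oxidase, for Ms4a6c, and Unc93b1 (0.98), which carries Toll-like receptors to endosomes, for Ms4a7. Ms4a4a was closest to Fcgr2b (0.91) and Ms4a14 to Cln3 (0.96), and Ms4a8a to Slc10a3 (0.84). Among the members, the pair Ms4a6b and Ms4a6c had the highest value, and part of their sequence is shared. Ms4a8a, at few counts, stood furthest off, with -0.05 to Ms4a6b and 0.58 to Ms4a4a. Ms4a4a ranged from 0.44 (Ms4a6b) to 0.73 (Ms4a7), Ms4a6d and Ms4a7 stood at 0.51, and Ms4a7 and Ms4a14 stood at 0.89.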

How the data were processed

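Reads of 18 poly(A) libraries of BMDMs (6 groups of 3) were trimmed by the authors with Trimmomatic 0.36, aligned to GRCm39 with HISAT2 2.2.1.0 (versions as in the submitters' processing notes) and assembled with StringTie. The deposited values are raw read counts per gene symbol for 16314 genes; the annotation release, the strand setting and the treatment of reads that match several genes are not given in the sources used here. Total counts were 19068237 to 22598279 per library.

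From these counts, edgeR 4.0.16 (R 4.3.3) was run on all 18 libraries with 1 coefficient per group, filterByExpr (12021 genes kept), TMM scaling (factors 0.818 to 1.20) and the quasi-likelihood test, with Benjamini-Hochberg adjustment over all tested genes. Calls needed a fold change over 1.5 besides an adjusted p under 0.05. The SE was the log2 fold change divided by the square root of the F statistic. There were 9 comparisons. Normalized counts are counts divided by the effective library size and scaled to its mean. Intervals cover counting error only. P-values measure the spread between these libraries. Annotation was GENCODE M39 (GRCm39), and near copies were found with blastn 2.17.0 as alignments of at least 150 bases at 85% identity. The members and gene lists were chosen with earlier results of these data known. All 8 members, Prep, Clec7a, Trem2 and the called genes of the lists were eligible to be named, with the genes most correlated with each member. Gm8369 was named besides, as a tested gene of the cluster.

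Whether equal replicate numbers pair libraries was checked by the correlation of deviations from the group means. Every pair was over 0.1 for the genotypes in M2 (0.249, 0.255 and 0.462) and for M1 against M0 in Prep-/- cells (0.201, 0.169 and 0.259), and the numbers were taken as pairs there. Libraries of unequal number were not correlated for comparison, so these values cannot decide whether the numbers mark pairs. The labels do not state such pairs, and the main test did not use them. Alternatives were DESeq2 1.42.0, its size factors, 2 other filters, a test against the fold limit, fewer libraries, replicate blocks and leaving out each library. Groups of 3 were too small for a test of outlying libraries.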

Additional observations from a re-analysis of the deposited data

Results flagged for a closer look

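The response to LPS differed between genotypes for 6 members by the interaction term of the fit, each with a lower log2 fold change in Prep-/- than in Prep+/- BMDMs. For Ms4a7 the responses had opposite signs, at 1.43 in Prep+/- and -0.59 in Prep-/- cells. The log2 difference of response was -5.37 ± 0.53 (SE) for Ms4a4a (adjusted p = 9.85e-06), -3.54 ± 0.55 for Ms4a4c (adjusted p = 3.60e-04) and -2.45 ± 0.38 for Ms4a6b (adjusted p = 3.33e-04). It was -2.35 ± 0.37 for Ms4a6c (adjusted p = 3.89e-04), -2.02 ± 0.30 for Ms4a7 (adjusted p = 2.69e-04) and -1.31 ± 0.19 for Ms4a6d (adjusted p = 1.74e-04).

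The response to IL-4 and IL-13 differed for 5 members. The log2 difference of response was -4.29 ± 0.52 for Ms4a4a (adjusted p = 2.03e-04), -4.01 ± 0.63 for Ms4a4c (adjusted p = 0.00153) and -1.88 ± 0.38 for Ms4a6b (adjusted p = 0.00754). It was -1.88 ± 0.37 for Ms4a6c (adjusted p = 0.00628) and -1.64 ± 0.19 for Ms4a6d (adjusted p = 1.14e-04). In Ms4a4a this is a rise in Prep+/- cells without a called change in Prep-/- cells, and in Ms4a4c it is a fall in Prep-/- cells without a called change in Prep+/- cells. Both sets of values rest on the same 6 M0 libraries.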

How the results depend on the processing

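Over the 72 results of single members, 1089 values under alternatives kept direction and side of the thresholds in 1041 cases; 24 lost a call, 10 gained one and 14 changed sign, none of them in a called result. The count of members called in M0 between genotypes was 7 or 8 under every alternative. It was 7 of 7 where Ms4a8a did not pass the filter: at least 1 CPM in 3 libraries, only the libraries compared, and the replicate block among them. A test against the 1.5-fold limit itself gave 0 members for the genotypes in M1 and 3 for the interaction with IL-4 and IL-13. Leaving out single libraries gave 0 to 1 members in M1 and 2 to 5 in M2, and leaving out the third library of both genotypes in M2 gave 5; there Ms4a4c turned to 0.02. Without single libraries, values that changed sign ran from -0.26 to 0.37 (Ms4a14) and from -0.33 to 0.087 (Ms4a4a) for M1 against M0 in Prep-/- cells, from -1.61 to 0.72 for Ms4a8a there and from -0.71 to 0.93 for Ms4a8a between genotypes in M1. They ran from -0.51 to 0.42 for Ms4a4c between genotypes in M2, from -0.51 to 0.067 for Ms4a4a in Prep-/- cells and, in Prep+/- cells, from -0.16 to 0.72 for Ms4a4c and from -0.15 to 0.078 for Ms4a7, all for M2 against M0. The cause was not tested.

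With the replicate block, 2 members were called between genotypes in M2 and 3 for M1 against M0 in Prep-/- cells, as without it, and where the numbers were taken as pairs it changed no call. With the block among the M2 libraries, the genotype difference was 1.49 for Ms4a7 (adjusted p = 0.00231) and 1.40 for Ms4a14 (adjusted p = 0.00289). For M2 against M0 in Prep-/- cells, where the numbers were not taken as pairs, the block left 3 of 4 calls, with Ms4a7 at -0.75 (adjusted p = 0.0530).
Over all tested genes, the test against the fold limit moved the genotype calls of M0, M1 and M2 from 3913, 2700 and 1947 to 1970, 634 and 723, those of the interactions from 2540 to 751 (LPS) and from 1041 to 103 (IL-4 and IL-13), those of M1 against M0 from 4529 to 2956 (Prep+/-) and from 5048 to 3212 (Prep-/-), and those of M2 against M0 from 1546 to 672 and from 3636 to 1898. The IL-4 and IL-13 interaction also came to 562 with only the libraries compared, 669 with the replicate block among them, 502 and 555 without the Prep+/- M0 libraries 2 and 3, and 557 and 609 without the Prep+/- M2 libraries 1 and 2. The M1 genotype comparison came to 1742 without Prep-/- M1 library 1, and M2 against M0 in Prep-/- cells to 2341 with the replicate block among the libraries compared. Depth limits Ms4a8a, at 0 to 17 counts per library. DESeq2 called 1 further member between genotypes in M2, Ms4a6b at 0.74 (adjusted p = 0.0320).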
